A study of Homo sapiens with 4 samples.

Results

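The D cyclins, the G1 cyclin-dependent kinases and the inhibitors of those kinases were examined in Hep3B cells after UNC50 knockdown. The group was defined by name and comprised 10 genes: CCND1, CCND2, CCND3, CDK2, CDK4, CDK6, CDKN1B, CDKN1C, CDKN2A and CDKN2C. All probes on the array that carry one of these names and are not controls were taken, which gave 12 probes of the 42405 on the array and 10 genes of 34809. CDKN1B and CDKN2A have 2 probes each, and the other genes have 1. Hep3B is a human hepatocellular carcinoma cell line, and UNC50 encodes a membrane protein of the Golgi apparatus.

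The 4 cultures were compared, with 1 array each. All were Hep3B cells transfected with a plasmid that expresses a small hairpin RNA, and the labels call all 4 purified. The study gives puromycin selection for knockdown cells and names it for shR-MOCK, shR-554 and shR-749. The control thus carried a hairpin plasmid and met the drug as well. The drug for shR-467 is not named separately. The methods give the plasmid as pLKO.1 for shR-MOCK, shR-554 and shR-749, and the vector of shR-467 is not given in the sources used here. The control expressed a mock hairpin (shR-MOCK). The other 3 cultures expressed shR-467, shR-554 or shR-749, which are different hairpins against UNC50, and these were treated as 3 replicates of UNC50 knockdown. Because there was 1 control array, the spread between control cultures is not known, and the p-values rest on the spread between the hairpins. In the fit the spread of each probe is drawn toward that of all probes. The intervals given below are therefore not set by the SD of a probe alone. The methods describe drug selection of the transfected cells and no cloning step.

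Progress through G1 is driven by D-type cyclins, which growth factor signals induce and which bind and activate CDK4 and CDK6. These kinases phosphorylate the retinoblastoma family of pocket proteins, which releases E2F factors and leads to cyclin E and to the activity of CDK2. Inhibitors of the INK4 type (CDKN2A, CDKN2C) bind CDK4 and CDK6 alone, whereas inhibitors of the CIP/KIP type (CDKN1B, CDKN1C) bind complexes of cyclins with CDK2 and also take part in the assembly of cyclin D with its kinases. Hep3B cells are known to lack functional p53 and retinoblastoma protein. The title of the series names the G1/S transition, and the comparison asks how transcripts of this machinery differed between UNC50 knockdown and mock cells.

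The probes are 60 bases long, and the sequences below show what the arrays read for the genes on which the results turn. The first 30 bases are given for CCND1, CDK2 and CDKN1C, whose mean levels differed by at least 1.5-fold. The whole probe is given for CDKN1B and for 1 of the 2 probes of CDKN2A, a gene whose transcripts encode either p16INK4a or p14ARF. All are written 5′ to 3′ in lower case, with no part marked, and positions on hg19 come from the annotation of the array.
CCND1, probe A_23_P202837, chr11:69468233-69468262, plus strand: gctctattccaaaaaggttgctgtttcaca
CDK2, probe A_23_P98898, chr12:56365789-56365818, plus strand: tgctgccacaatgtttataaaggccaaatg
CDKN1C, probe A_23_P428129, chr11:2904933-2904962, minus strand: gtattctgcacgagaaggtacactggtccc
CDKN1B, probe A_23_P204696, chr12:12871119-12871178, plus strand: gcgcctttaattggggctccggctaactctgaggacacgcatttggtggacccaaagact
CDKN2A, probe A_33_P3411628, chr9:21970901-21970960, minus strand: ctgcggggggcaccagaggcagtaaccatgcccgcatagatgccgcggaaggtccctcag
The annotation lists both CDKN2A probes under the transcripts of p16INK4a and of p14ARF, so neither probe separates the products. The share of G and C bases over the whole probe was 43.3% for CCND1, 45% for CDK2, 38.3% for CDKN1C, 55% for this CDKN1B probe and 66.7% for this CDKN2A probe.

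Levels are given as the background-subtracted signal in percent of the 75th percentile of the same array, which puts the 4 arrays on one scale. That percentile ran from 978 to 1390 signal units. Differences are log2 of the hairpin's level minus log2 of the mock level. Between 67.65% and 73.59% of the spots on an array were well above background, and none was saturated. UNC50 itself, read by 1 spot, was at 24.0% of its mock level under shR-467, 13.7% under shR-554 and 18.7% under shR-749, a mean log2 difference of -2.45 ± 0.40 (SD, n = 3 hairpins), so it was lower in every culture labelled as knockdown. All 10 hepatocyte and hepatoma markers examined, among them ALB, AFP and APOA1, were well above background on all 4 arrays. Their summed level was 58670% on the mock array and 63730% to 77970% with the hairpins, and APOA1, FGA and TTR were at least 1.5-fold higher with every hairpin, as 0.579% of all probes above background on the 4 arrays were. The summed level of the other lists was 18.6% on the mock array and 24.4% to 27.8% with the hairpins for 6 fibroblast markers, 24.1% and 25.8% to 36.8% for 5 endothelial markers, and 468% and 445% to 604% for 5 leukocyte markers. COL1A1, COL3A1, KDR and TEK were not well above background on any array. The part of the hepatoma markers in the results below was not tested.

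Of the 12 probes, 11 gave a signal well above background on each of the 4 arrays, for 9 genes, and CCND2 did so on none. The leading result was a lower level of CCND1, which encodes cyclin D1, with every hairpin. Of the 11 probes, 3 were at least 1.5-fold lower than mock on average (27.3%), for CCND1, CDK2 and CDKN1C, where 2.84% of the 26057 probes above background on all arrays reached this. None was 1.5-fold higher, where 2.3% of all such probes were. CCND1 was also the 1 probe of 11 that was 1.5-fold lower with every hairpin (9.09%), against a background of 0.484%. The study had already reported CCND1 as lower on these arrays. It also reported real-time PCR of CCND1 and western blots of cyclin D1, both of which changed with UNC50 levels. The members were chosen with earlier results of these data known. The shares of the members therefore describe the group and do not test it. Over the 30274 probes that passed the filter, which lets in probes above background on the mock array alone and so favours lower values, the shares were 7.35% lower and 2.25% higher on average, and 1.23% and 0.552% with every hairpin. The median of the 11 mean log2 differences was -0.34, and that of all probes tested was -0.03. With 1 mock array, limma's adjusted p was 0.9998 for each of these 11 probes, no probe on the array passed an adjusted p of 0.05 in this fit, and 451 of 30274 (1.49%) had an unadjusted p under 0.05, CCND1 alone among the members.

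**Figure D1:**
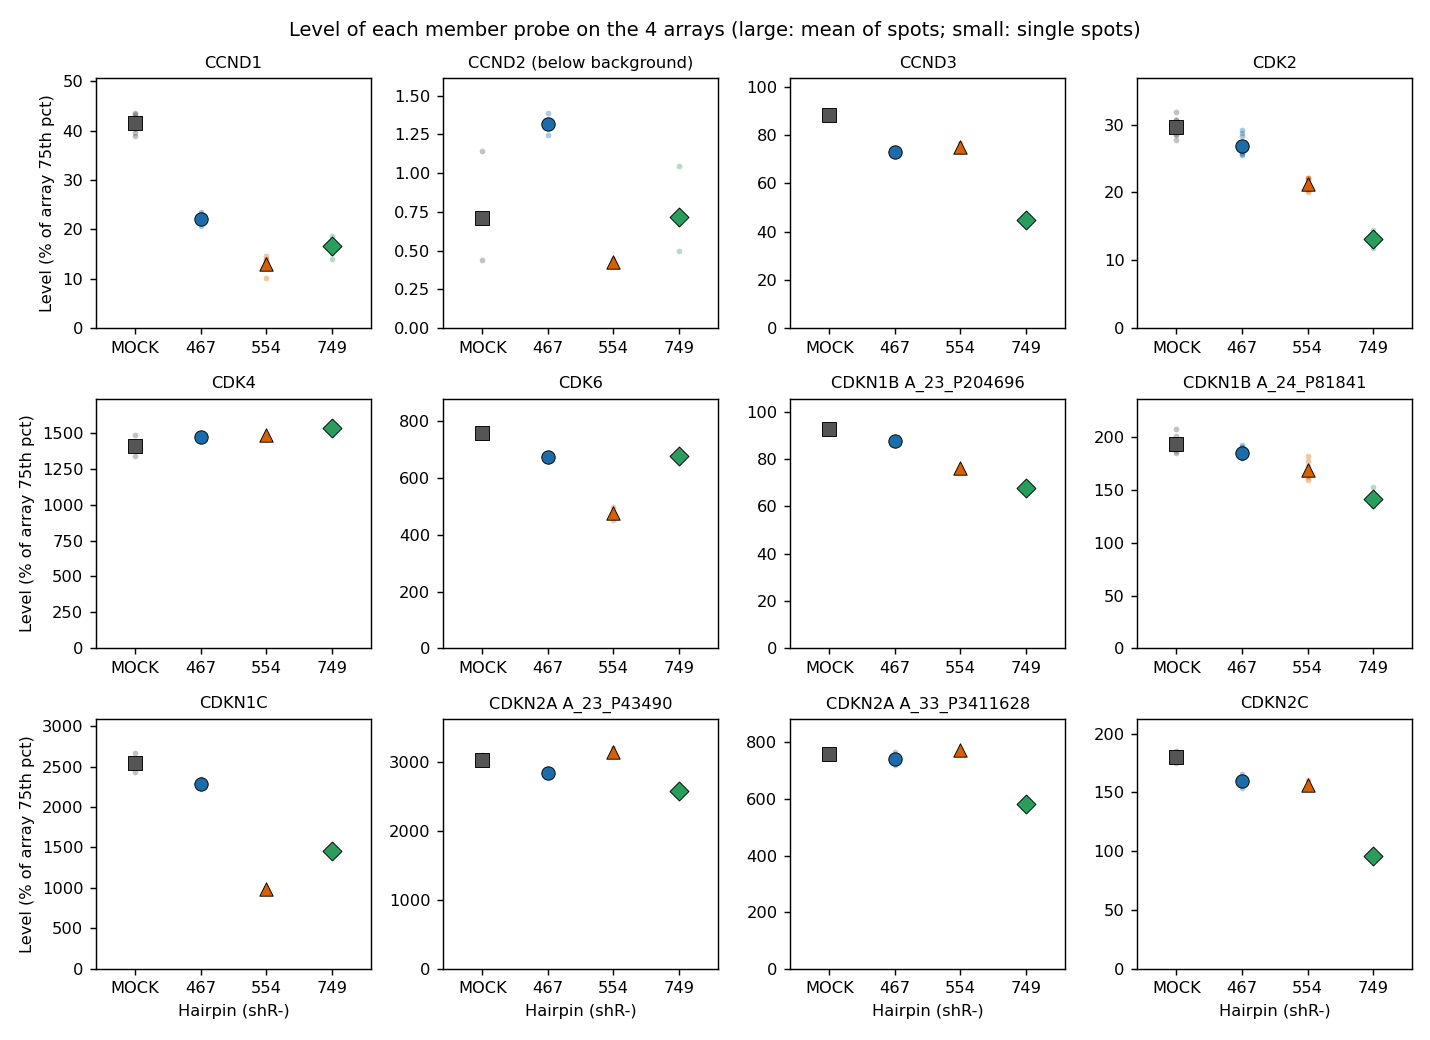
Level of each of the 12 probes on the 4 arrays, in percent of the array's 75th percentile, on axes that start at 0. Large symbols are means over the spots of a probe and small points are single spots without those marked as outliers. CCND1 is highest on the shR-MOCK array at 41.6% and lies between 13.0% and 22.2% with the hairpins, whereas CDK4 lies between 1409% and 1531% on all 4.

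Among the D cyclins, CCND1 and CCND3 were measured and both were below mock with all 3 hairpins. CCND1, which encodes the D cyclin most tied to growth factor signals, was at 41.6% in mock cells, 22.2% under shR-467, 13.0% under shR-554 and 16.5% under shR-749. The mock value was above all 3 knockdown values, and the lowest value came with shR-554. These levels were 53.3%, 31.1% and 39.8% of mock, or log2 differences of -0.91, -1.68 and -1.33. The mean was -1.31 ± 0.39 (SD, n = 3 hairpins), with a 95% confidence interval from limma of -2.14 to -0.47 and an adjusted p of 0.9998. By its p, CCND1 ranked 104 of the 30274 probes tested, and an exact permutation test of 1 array against 3 cannot give a p below 0.25.

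The CCND1 probe was printed in 10 spots per array, so that the error between spots of an array can be seen directly. The signals of the single spots ran from 435 to 487 on the mock array, from 203 to 229 over the 7 spots used with shR-467, from 140 to 202 under shR-554 and from 158 to 210 under shR-749. After scaling, no knockdown spot that was used overlapped a mock spot with any hairpin. The standard error of the differences from the spots was between 0.029 and 0.050 on the log2 scale. The spots measure the array and not the culture, so this error says nothing of the spread between cultures. On shR-467 the scanner software had marked 3 of the 10 spots as outliers, and with the marked spots kept the mean difference was -1.31.

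The value for CCND1 depended in part on which deposited values were read. Besides the scanner output, a table of log2 values processed by the authors was deposited. A quantile normalization recomputed from the scanner output lay within 0.1 of it on every array for all but 5 of 42405 probes. CCND1 was 1 of these 5 and the only one among the 12 probes examined here, as the others departed by at most 0.00544. Its deposited value was below the recomputed one by 0.49 on the log2 scale with shR-467 and by 0.13 with shR-749, and was within 0.01 of it on the other arrays.
On shR-467 the deposited value of 7.49 lay below every one of the 10 spots on the same scale, of which the lowest was 7.72. From the deposited table the CCND1 differences were -1.42, -1.69 and -1.48, and from the recomputed values they were -0.93, -1.68 and -1.34. The mean with the deposited values was -1.53 ± 0.14 (SD, n = 3 hairpins; limma adjusted p = 0.890). The cause of the departure was not tested. The direction was the same from both sources, and the spread between the hairpins was smaller in the deposited table.

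CCND3 encodes cyclin D3. Its level was 88.6% in mock cells, 72.9% under shR-467, 75.2% under shR-554 and 44.7% under shR-749. The value with shR-749 stood apart from the other two hairpins, which were close to each other. The log2 differences were -0.28, -0.24 and -0.99, with a mean of -0.50 ± 0.42 (SD, n = 3 hairpins; limma interval -1.31 to 0.31), and without shR-749 the mean was -0.26. The CCND2 probe, for cyclin D2, gave a signal of 7.93 units in mock cells, 12.9 under shR-467, 5.96 under shR-554 and 8.12 under shR-749, where the lowest signal well above background on an array was between 21.2 and 28.3. No fold is given for CCND2, since it was below background in both groups.

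**Figure D2:**
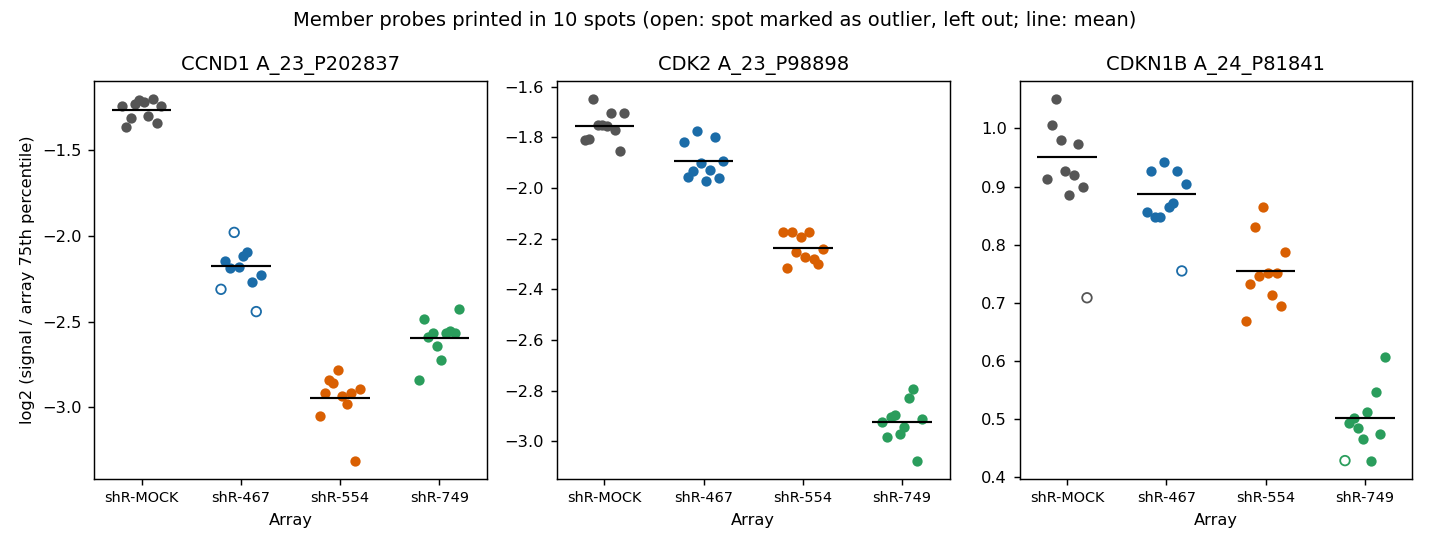
Single spots of the 3 member probes printed 10 times, as log2 of the signal over the array's 75th percentile, by array. Filled points were used, open points were marked as outliers and left out, and lines are means. CCND1 spots on the shR-MOCK array lie above all spots of every hairpin, whereas for CDK2 and CDKN1B the shR-467 spots that were used overlap the mock spots.

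The kinases differed from each other in how far they departed from mock. CDK4 was close to mock with every hairpin, CDK2 was lower mostly with shR-749, and CDK6 was lower mostly with shR-554. CDK4, a partner of the D cyclins, was at 1409% in mock cells, 1472% under shR-467, 1482% under shR-554 and 1531% under shR-749. All 3 knockdown values were slightly above mock, by 0.06, 0.07 and 0.12 on the log2 scale. The 2 mock spots were apart, at 3.89 and 3.74 on the scaled log2 axis. Spots ran from 3.87 to 3.94 with the hairpins, and those with shR-467 and shR-554 overlapped the range of the mock spots. The mean of 0.09 ± 0.03 (SD, n = 3 hairpins) had a limma interval of -0.29 to 0.46, which did not reach 1.5-fold in either direction. The interval assumes that the mock array varies like the hairpins, so it cannot exclude such a difference. By the mean of its spots, CDK4 was the only one of the 9 genes measured that was above mock with every hairpin, where 20.1% of all probes above background were.

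CDK6, which also binds the D cyclins, was at 758% in mock cells, 672% under shR-467, 475% under shR-554 and 676% under shR-749. The value with shR-554 was the lowest, and those with shR-467 and shR-749 were alike. The log2 differences were -0.17, -0.67 and -0.16, with a mean of -0.34 ± 0.29 (SD, n = 3 hairpins; limma interval -0.93 to 0.26). Without shR-554 the mean was -0.17.

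CDK2, the kinase that acts with cyclins E and A at the entry into S phase, was at 29.6% in mock cells, 26.9% under shR-467, 21.2% under shR-554 and 13.2% under shR-749. The hairpins were spread over a wide range below mock. The log2 differences were -0.14, -0.48 and -1.17, with a mean of -0.60 ± 0.52 (SD, n = 3 hairpins; limma interval -1.58 to 0.38). Without shR-749 the mean was -0.31, and with normexp background correction it was -0.48, both short of 1.5-fold. The CDK2 probe also has 10 spots, with signals of 310 to 357 on the mock array, 249 to 286 with shR-467, 279 to 308 with shR-554 and 134 to 163 with shR-749. The spot errors of the differences were 0.030, 0.026 and 0.031, and after scaling the spots overlapped those of the mock array with shR-467 only.

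**Figure D3:**
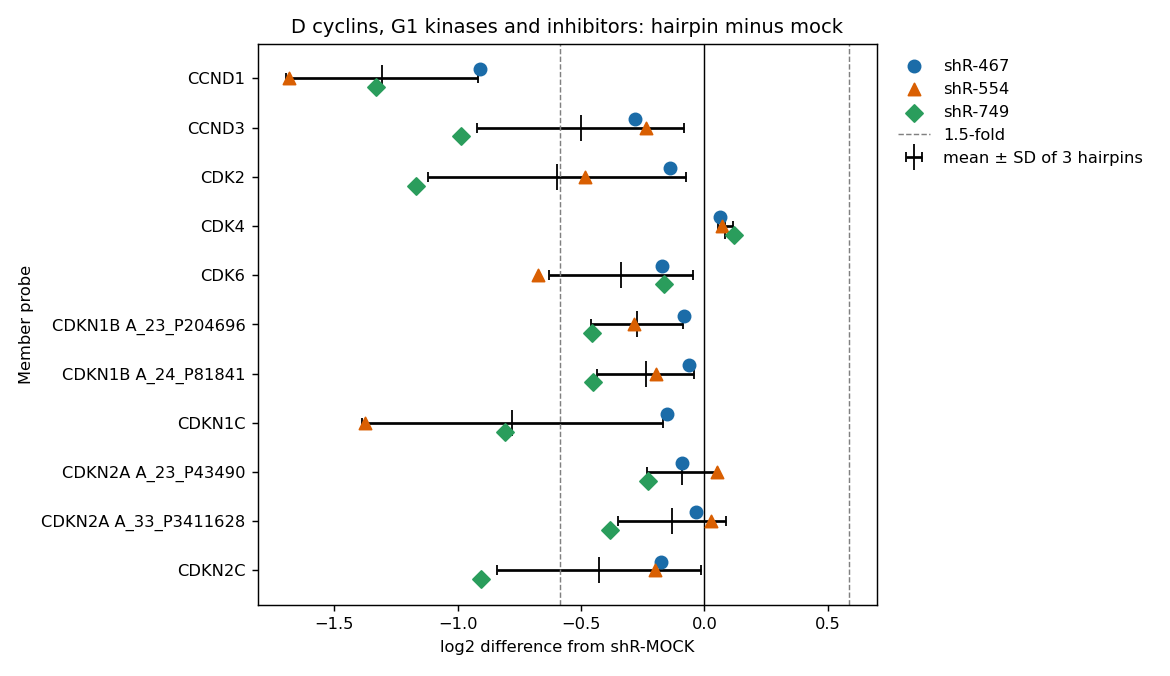
Log2 difference from the shR-MOCK array for each of the 11 probes above background, by hairpin (symbols), with the mean and the SD over the 3 hairpins (black). Dashed lines mark 1.5-fold. CCND1 is beyond the line with every hairpin, CDKN1C with shR-554 and shR-749, CDK6 with shR-554, and CCND3, CDK2 and CDKN2C with shR-749.

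Of the CIP/KIP inhibitors, CDKN1C was lower with shR-554 and shR-749 and near mock with shR-467, and CDKN1B departed by less. CDKN1C encodes p57 and is an imprinted gene. Its level was 2546% in mock cells, 2290% under shR-467, 982% under shR-554 and 1456% under shR-749. This was 89.9%, 38.6% and 57.2% of mock, with log2 differences of -0.15, -1.37 and -0.81. The mean was -0.78 ± 0.61 (SD, n = 3 hairpins; limma interval -1.75 to 0.20), and without shR-554 it was -0.48, below 1.5-fold. Next to CCND1 this was the largest mean difference among the members, and 4.14% of all probes tested had a lower one, against 0.922% for CCND1.

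CDKN1B encodes p27, which binds cyclin and CDK2 complexes, and its 2 probes read different stretches of the transcript. The probe printed above, with 1 spot, was at 92.9% in mock cells, 87.7% under shR-467, 76.3% under shR-554 and 67.7% under shR-749. The second probe (A_24_P81841, chr12:12874940-12874999, plus strand), with 10 spots, was at 193%, 185%, 169% and 142% on the same arrays. Both probes put the 4 arrays in the same order, from mock down to shR-749. The log2 differences were -0.08, -0.28 and -0.46 for the first probe and -0.06, -0.20 and -0.45 for the second. The means were -0.27 ± 0.19 and -0.24 ± 0.20 (SD, n = 3 hairpins; limma intervals -0.85 to 0.30 and -0.79 to 0.31), and without shR-749 they were -0.18 and -0.13. The spot errors for the second probe were 0.022, 0.026 and 0.025, and the mock spots were overlapped with shR-467 only.

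Of the INK4 inhibitors, CDKN2A stayed near mock with shR-467 and shR-554, and CDKN2C was lower mainly with shR-749. CDKN2A was at 3026% in mock cells, 2842% under shR-467, 3140% under shR-554 and 2580% under shR-749 by the probe A_23_P43490 (chr9:21968039-21968098, minus strand). The probe printed above gave 760%, 742%, 773% and 583% on the same arrays. By both probes the mock array lay within the range of the hairpins, with shR-554 above it and shR-749 lowest. The mean log2 differences were -0.09 ± 0.14 and -0.13 ± 0.22 (SD, n = 3 hairpins), with limma intervals of -0.50 to 0.32 and -0.65 to 0.39. CDKN2C encodes p18INK4c and was at 180% in mock cells, 159% under shR-467, 156% under shR-554 and 96.0% under shR-749. The log2 differences of CDKN2C were -0.17, -0.20 and -0.91, with a mean of -0.43 ± 0.41 (SD, n = 3 hairpins; limma interval -1.20 to 0.35). Without shR-749 the mean for CDKN2C was -0.19, so the distance from mock came mostly from this hairpin.

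The hairpins differed in how many member genes lay 1.5-fold below mock; this difference was not tested. With shR-467, CCND1 alone of the 11 probes was at least 1.5-fold lower (9.09%), where 4.17% of all probes above background were. With shR-554 there were 3 (27.3%), for CCND1, CDK6 and CDKN1C, against a background of 7.97%. With shR-749 there were 5 (45.5%), for CCND1, CCND3, CDK2, CDKN1C and CDKN2C, against 6.26%. None of the 11 probes was 1.5-fold higher with any hairpin, where 5.87%, 4.41% and 5.25% of all probes were, in the order just given. The median log2 difference of the 11 probes was -0.14, -0.24 and -0.46 in that order of hairpins, and over all probes it was 0.03, -0.03 and -0.05. Of the 11 probes, 8 were lower with every hairpin at any size (72.7%), for 7 genes, against 18.6% of all probes above background. The hairpins share the mock array, so an unusual value there moves all 3 differences together in a way that cannot be told apart from the knockdown.

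**Figure D4:**
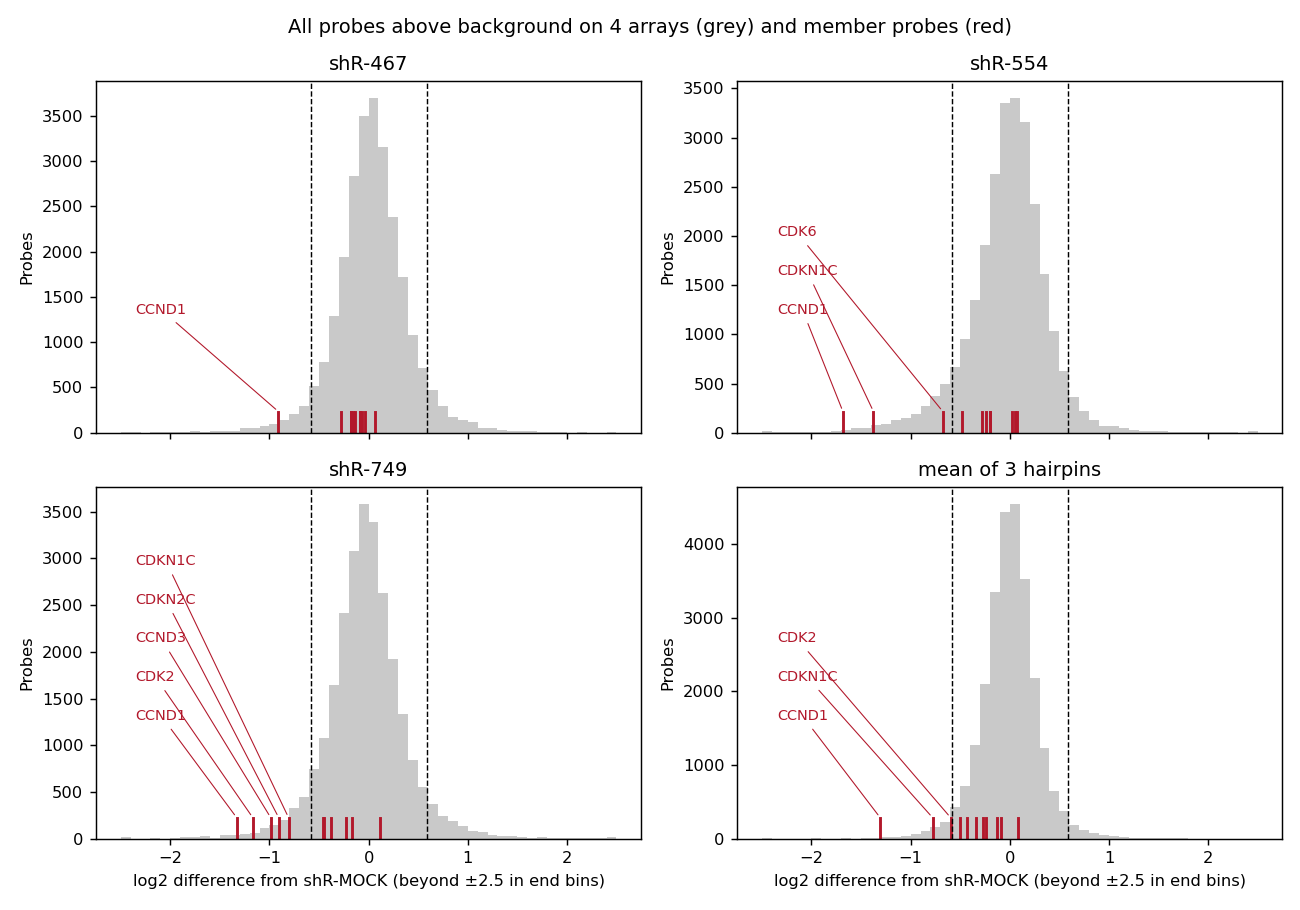
Distribution of log2 differences from shR-MOCK over the 26057 probes above background on all 4 arrays (grey), for each hairpin and for the mean of 3, with the 11 member probes as red ticks and those at least 1.5-fold lower named. Dashed lines mark 1.5-fold. Member ticks past the lower line number 1 with shR-467, 3 with shR-554, 5 with shR-749 and 3 in the mean, and none lies past the upper line.

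The other genes of the pathway were read from a list of 24 partners and substrates of the G1 kinases, each by its brightest probe. Of these, 22 were well above background on all 4 arrays. None of the 22 was 1.5-fold lower on average, where 2.84% of probes were, and CDKN1A and E2F5 were at least 1.5-fold higher, where 2.3% were. Their median log2 difference was -0.06, with 15 genes lower and 7 higher. The median of all 21487 genes above background on the 4 arrays was 0.00, with 10668 lower and 10819 higher. No gene of the list passed an adjusted p of 0.05.

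CDKN1A, which encodes the CIP/KIP inhibitor p21, had a signal of 248 units in mock cells, 406 under shR-467, 444 under shR-554 and 370 under shR-749. After scaling it was above mock with every hairpin, by 0.90, 0.53 and 0.56 on the log2 scale, with a mean of 0.66 ± 0.21 (SD, n = 3 hairpins; limma interval 0.02 to 1.31, adjusted p = 0.9998). E2F5, a repressive E2F factor, was above mock by 0.73, 0.62 and 0.69, with a mean of 0.68 ± 0.05 (SD, n = 3 hairpins; limma interval 0.17 to 1.19, adjusted p = 0.9998), and was the gene of the list that was 1.5-fold higher with every hairpin, as 0.579% of all probes above background were. By sign alone, CDKN1A was higher and CDKN1B and CDKN1C were lower with every hairpin. Of all probes above background, 20.1% were higher and 18.6% lower with every hairpin. With shR-467 the differences were small, at -0.08 and -0.06 for the 2 CDKN1B probes and -0.15 for CDKN1C. The limma intervals of CDKN1B and CDKN1C included 0.

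Cyclins E1 and E2, CDKN2D, E2F1 and the pocket proteins departed by less than 1.5-fold on average when read by their brightest probe. CCNE1, for cyclin E1, differed from mock by -0.25 ± 0.08 and CCNE2, for cyclin E2, by -0.41 ± 0.27 (SD, n = 3 hairpins). A second, dimmer CCNE2 probe differed by -0.59 ± 0.18, just past 1.5-fold. CDKN2D, for p19INK4d, differed by -0.21 ± 0.46, with -0.68 on shR-749. CDKN2B, for p15INK4b, was below background on all 4. RB1, read by 10 spots, differed by -0.03 ± 0.04, RBL2 by 0.12 ± 0.08 and the brighter RBL1 probe by 0.00 ± 0.16. These 3 genes encode the pocket proteins, and a transcript signal for RB1 says nothing of its protein. E2F1, an activating E2F factor, differed by -0.04 ± 0.12.

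**Figure D5:**
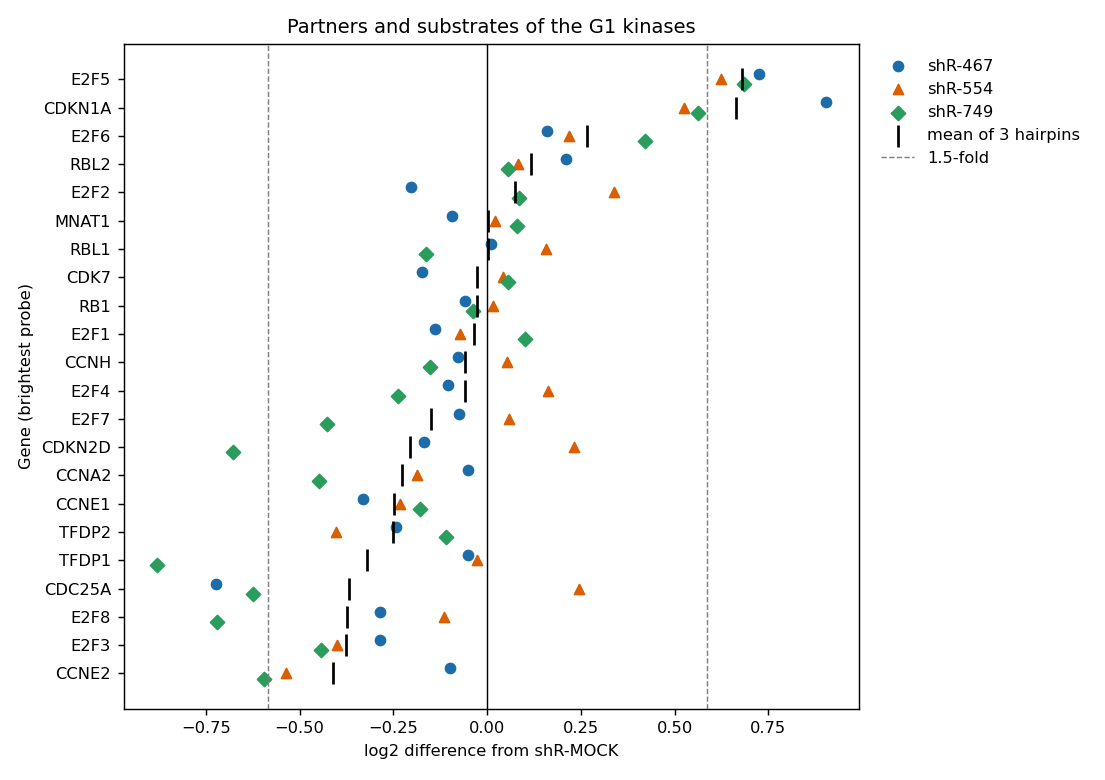
Log2 difference from shR-MOCK for the 22 partners and substrates of the G1 kinases above background, by hairpin (symbols) and as the mean of 3 (black tick), each gene by its brightest probe. Dashed lines mark 1.5-fold. CDKN1A and E2F5 have means past the upper line, and no gene has a mean past the lower line.

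A second list held 13 genes for the turnover of G1 regulators, such as ubiquitin ligase subunits that act on cyclins and on p27. All 13 passed the filter on dim probes. None was 1.5-fold off mock on average in either direction, where 7.35% of all probes that passed the filter were lower and 2.25% higher. Their median log2 difference was -0.05, with 7 lower and 6 higher. Of all 25148 genes that passed the filter, 13711 were lower and 11437 higher.

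The genes whose 3 differences were most like those of CCND1 were found among 21486 other genes above background on all arrays, by the root mean square of the distances between the log2 differences over the 3 hairpins. The nearest was NOD2, at 0.0863 log2 units, with differences of -1.06, -1.69 and -1.33 in the order used above. CXCL10 followed at 0.163, PHGR1 at 0.200 and TNF at 0.223, and the next was a transcript that the array does not name by a gene symbol, at 0.246. With 3 hairpins against 1 mock array, this measure describes likeness over 3 values only. The distances use the CCND1 differences from the scanner output, with -0.91 for shR-467. The deposited table gives -1.42 there, and the ranking was not repeated with that value.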

How the data were processed

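Conditions were taken from the sample labels. Per the labels' processing notes, Agilent Feature Extraction 10.7.1.1 made the deposited scanner files, which give for each spot an intensity with the background subtracted and marks for outliers and for signals well above background. The authors also deposited a table of log2 values, whose normalization is not given in the sources used here. Set against a quantile normalization of the scanner signals it differed by a median of 0.00102, with column medians of 6.369. Other deposited columns (scores, marks and positions) were used as filters and annotation only.

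The log2 of the processed signal was taken, the 75th percentile over the 58717 spots other than controls was subtracted for each array, spots with an outlier mark were dropped, and the remaining spots of each probe were averaged. A probe was tested if the mock array, or each of the 3 knockdown arrays, measured it well above background (30274 of 42405). The precision is limited by the number of arrays. Differences were tested with limma 3.58.1 in R 4.3.3 (lmFit, eBayes with trend, Benjamini-Hochberg over all kept probes; 2 residual and 4.88 prior degrees of freedom), with the lone mock array assumed to vary like the hairpins. The fold threshold of 1.5 follows the study's methods. The limma fit was tested on simulated probe values, in which the mock array was given the spread of the hairpins. Scaling, spot averaging and the filter were not part of that test.

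Genes named were all members, UNC50, CCNE1, CCNE2, CDKN1A, CDKN2B, CDKN2D, RB1, RBL1, RBL2 and E2F1 from the list of partners, any list gene 1.5-fold off mock the same way with every hairpin, and the 5 genes nearest to CCND1. The comparison of the deposited table with the spots of CCND1 was added after seeing the data. The members and lists were chosen with earlier results of these data known. The alternatives were other scalings, normexp with an offset of 50, the authors' values, raised low signals, other filters, marked spots kept, the median over spots, 1 probe or the mean per gene, limma without trend, the methods' t-test, a 2-fold threshold and each hairpin left out. The 4 arrays shared 1 slide and 1 scan, so a block for these could not be fitted.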

Additional observations from a re-analysis of the deposited data

How the results depend on the processing

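CCND1 was lower than mock under all 16 alternatives, by -1.53 to -1.07 on the log2 scale, with limma's adjusted p between 0.89 and 1, and with each hairpin left out by -1.51 to -1.12. Several of these alternatives could not move the CCND1 difference, as the gene has 1 probe, which was well above background. Other filters, raised low signals, 1 probe or the mean per gene, limma without trend and the methods' t-test left it at -1.31. All alternatives use the same mock array. No member probe above background changed direction under any alternative run. The count of member genes at least 1.5-fold off mock, 3, became 1 at 2-fold (CCND1), 0 when the methods' t-test was also asked for an unadjusted p under 0.05, and 2 to 4 with a hairpin left out. The median of the members' differences then ran from -0.42 to -0.19. Over all probes the count of 2905 (2225 lower, 680 higher) became 794 at 2-fold, 623 with normexp (327 lower, 296 higher), 1790 with low signals raised (1062 lower, 728 higher), 1339 with probes above background on all 4 arrays, 6389 with no filter, 231 with the methods' t-test, and 2805 to 4356 with a hairpin left out. limma called 4 probes with normexp and 1 without shR-554, none of them a member. No paired analysis was possible because the mock group holds 1 array and the hairpins share no replicate number with a second mock. The block for slide or scan was not run. With 1 mock array, an effect of the knockdown and an unusual control culture cannot be told apart, and 2 of the 3 mean differences past 1.5-fold, CDK2 and CDKN1C, fall below it without 1 hairpin.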

Other observations

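Genes of S phase and mitosis, which act after the G1 kinases, were read from a list of 12, of which 11 were on the array under the name listed. All 11 were well above background on the 4 arrays. None was 1.5-fold off mock on average in either direction, where 2.84% of all probes above background on the 4 arrays were lower and 2.3% higher. Of the 11 genes, 6 were lower and 5 higher, and their median log2 difference was -0.08, with medians of 0.05, -0.08 and -0.18 under shR-467, under shR-554 and under shR-749. Over all 21487 genes above background on the 4 arrays the median was 0.00, with 10668 lower and 10819 higher.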
